A study of Homo sapiens with 36 samples.

Results

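The miR-99/100 and miR-125 families were described across senescence of WI-38 cells. The members were chosen by name, and comprised the 9 mature miRNAs hsa-miR-99a-5p, hsa-miR-99b-5p, hsa-miR-99b-3p, hsa-miR-100-5p, hsa-miR-125a-5p, hsa-miR-125a-3p, hsa-miR-125b-5p, hsa-miR-125b-1-3p and hsa-miR-125b-2-3p, out of 1508 listed in the table. WI-38 is a strain of normal human fibroblasts from lung, so every value comes from 1 strain. Small RNA was sequenced in 36 libraries, 2 labelled biological replicates for each of 18 conditions. Ctrl cells were young, proliferating and untreated. PMD-Sen cells were exposed for 24 h to 0.0095% sodium dodecyl sulphate (SDS), which disrupts the plasma membrane. DDR-Sen cells were exposed for 24 h to 250 nM doxorubicin (DXR), which damages DNA. Both series were collected at the end of the exposure (D0) and then, once the agent was removed, on D1 to D4 and on D6, D8 and D16. RS cells had reached replicative senescence at a population doubling level of 54 to 56.

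A miRNA hairpin gives 2 arms, 5p and 3p. One arm, the guide, is usually retained in an Argonaute protein, while the other, the passenger, is usually degraded. The guide finds mRNAs mainly through its seed, the bases near its 5′ end. miR-125 is the vertebrate relative of lin-4, and its genes lie beside let-7 and miR-99/100 genes in an arrangement conserved across animals. MTOR is a known target of the miR-99/100 family.

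The mature sequences of the 9 members are shown because the seeds, not the gene names, group the members by the mRNAs they can pair with. All come from RefSeq (GRCh38.p14), and capitals mark the seed (bases 2 to 8, counted from 1 at the 5′ end). The first 3 share 1 seed and the next 2 share another, whereas no member shares the seed of any of the last 4.
hsa-miR-100-5p: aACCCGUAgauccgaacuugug
hsa-miR-99a-5p: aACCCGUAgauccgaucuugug
hsa-miR-99b-5p: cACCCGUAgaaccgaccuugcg
hsa-miR-125b-5p: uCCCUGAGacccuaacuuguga
hsa-miR-125a-5p: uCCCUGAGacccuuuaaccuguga
hsa-miR-99b-3p: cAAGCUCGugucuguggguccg
hsa-miR-125b-1-3p: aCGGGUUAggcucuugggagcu
hsa-miR-125a-3p: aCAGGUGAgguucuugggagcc
hsa-miR-125b-2-3p: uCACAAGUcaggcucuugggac

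miR-99a-5p differs from miR-100-5p by the single substitution U16A, so reads that end early or carry an error there could be given to either. miR-99a-5p and miR-100-5p were also the members whose deposited counts were not always whole, in 22 and 20 libraries, meaning that some reads had been split between miRNAs. miR-99b-5p differs from miR-99a-5p by 4 substitutions outside the seed (A1C, U11A, U16C and U21C, with the miR-99a-5p base first). miR-125a-3p and miR-125b-1-3p also differ at 4 of 22 positions (A3G, G7U, U11C and C22U, with the miR-125a-3p base first), and A3G and G7U lie in the seed.

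The members come from 3 clusters, each with 1 miR-99/100 gene, 1 let-7 gene and 1 miR-125 gene. On chromosome 19, MIR99B (chr19:51692612-51692681), MIRLET7E and MIR125A (chr19:51693254-51693339) lie within 728 bases on the plus strand. MIR99B overlaps an intron and MIR125A an exon of the protein-coding gene SPACA6, and all 3 lie opposite an exon of the lncRNA SPACA6-AS1. On chromosome 11, MIR100 (chr11:122152229-122152308), MIRLET7A2 and MIR125B1 (chr11:122099757-122099844) span 52552 bases of the minus strand in introns of the lncRNA MIR100HG. On chromosome 21, MIR99A (chr21:16539089-16539169), MIRLET7C and MIR125B2 span 51223 bases of the plus strand within the lncRNA MIR99AHG, MIR99A in an intron and MIR125B2 (chr21:16590253-16590311 for its 2 arms) in an exon. miR-125b-5p is identical from MIR125B1 and MIR125B2, so the reads of this guide cannot be told apart by locus, but miR-125b-1-3p and miR-125b-2-3p each belong to 1 of the loci.

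The library totals ranged from 81670 to 1933442 counts, with a median of 376989.5. All 9 members passed edgeR's low-count filter, which kept 360 miRNAs. Levels are given as CPM, the counts scaled to a common TMM-adjusted library total. Fibroblast miRNAs summed to 56114 to 136932 CPM, whereas the epithelial list was at 173 or less, blood at 13.3 or less, endothelial at 191 or less, neural at 15.8 or less, muscle at 40.1 or less and the liver miRNA at 279 or less. Replicates varied more than counting error allows, with chi-square values of 4.02 to 99.1 per degree of freedom. A lower level in these bulk libraries can mean fewer cells with the miRNA or less of it per cell.

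As a group the members were among the most abundant miRNAs of these cells. They took 15.4% of the library in PMD-Sen D0 replicate 2, a median of 18.6%, and 21.8% in RS replicate 1. miRNAs with the miR-99/100-5p seed took 8.14% to 11.9% and those with the miR-125-5p seed 6.85% to 12%. For comparison, the 9 let-7 guides took 16.1% to 24.4%. The sum over miR-99/100-5p does not depend on how reads were divided between miR-99a-5p and miR-100-5p.

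Guides with the same seed differed in level. hsa-miR-100-5p, the guide of the chromosome 11 cluster, ranked 2 of all miRNAs by mean level, with 57158 to 103476 CPM and a median of 77591. hsa-miR-99b-5p, from chromosome 19, ranked 19 with 11168 to 23800 CPM, and hsa-miR-99a-5p, from chromosome 21, ranked 145 with 153 to 422 CPM. In Ctrl, miR-100-5p had 398 and 352 times the counts of miR-99a-5p, although their sequences differ at 1 base. hsa-miR-125b-5p ranked 5 with 44917 to 81926 CPM, and hsa-miR-125a-5p ranked 8 with 17432 to 47222 CPM. The 2 miR-125 guides were closer together than miR-100-5p and miR-99a-5p, and miR-125a-5p had 0.33 to 0.659 times the counts of miR-125b-5p. How efficiently each miRNA was captured was not measured, and its part in differences between miRNAs was not tested.

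The 3p arms were lower than their 5p partners in every library. hsa-miR-125b-1-3p had 1097 to 2539 CPM and hsa-miR-99b-3p 290 to 927 CPM. hsa-miR-125a-3p had 67.1 to 277 CPM, with as few as 10 counts in 1 library. hsa-miR-125b-2-3p was the rarest member at 5.54 to 37.9 CPM, which were 1 to 47 counts. In PMD-Sen D0 replicate 1, its single count corresponded to 0.000958% of the library, with an exact 95% binomial interval of 2.42e-05% to 0.00533% that covers counting error only. The arm from the chromosome 11 locus was thus far above that from chromosome 21, with miR-125b-1-3p at a median of 1877 CPM and miR-125b-2-3p at 22 CPM.

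**Figure D1:**
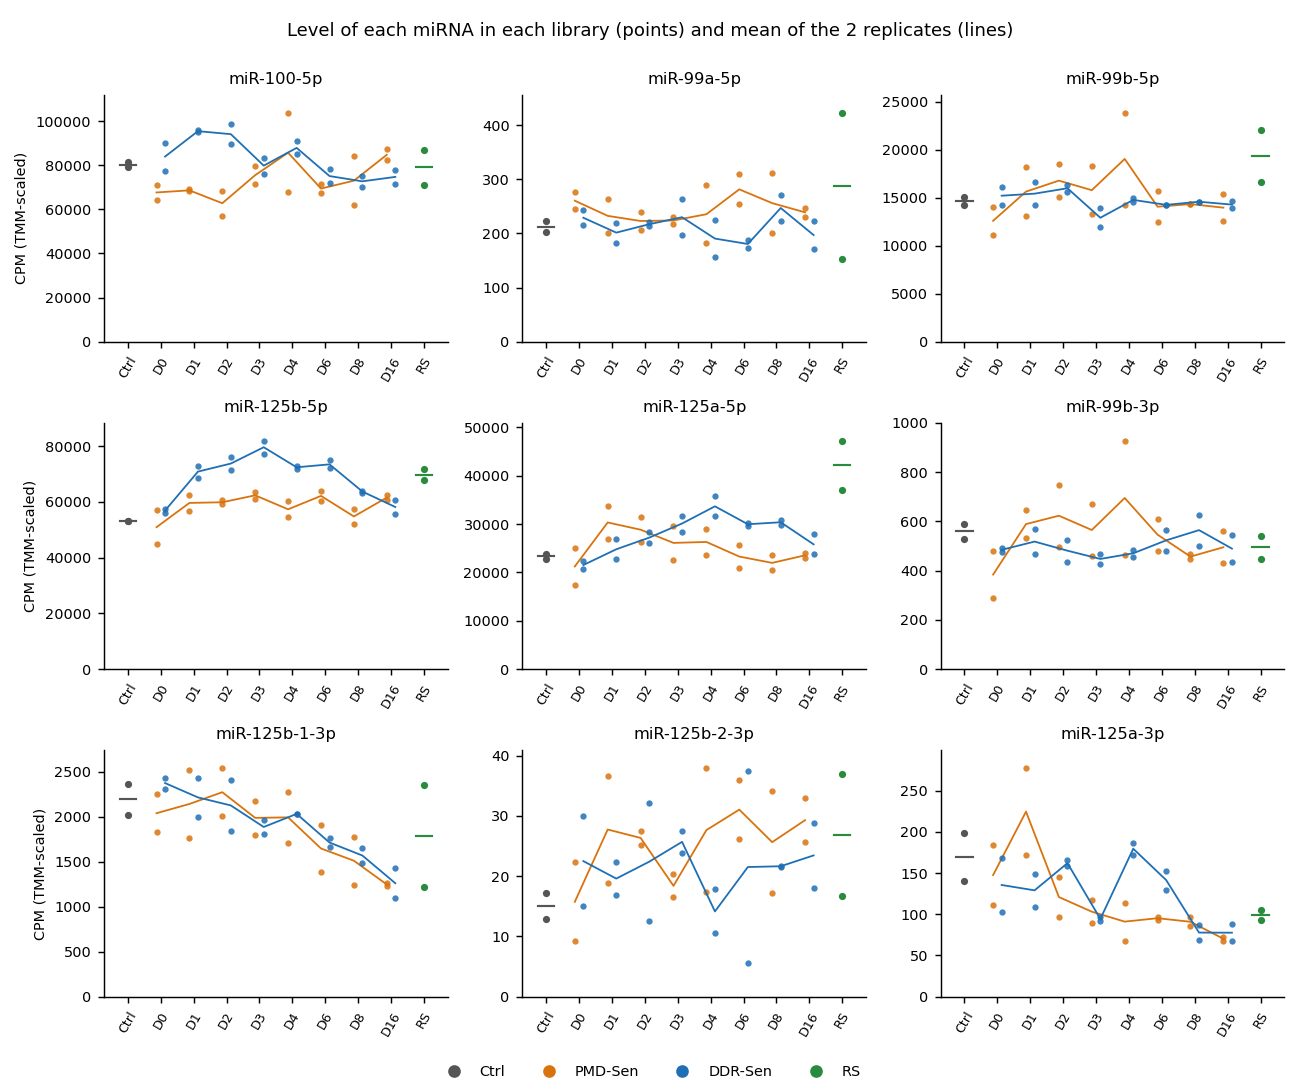
Level of each member in CPM (vertical axes start at 0) in every library, with conditions in order of collection, not to scale in time; points are libraries and lines join or mark the means of 2 replicates. miR-125b-1-3p lay at 2022 and 2368 in Ctrl and at 1097 to 1426 at D16 of both series, and miR-125a-5p was highest in RS, at 37133 and 47222.

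The guides moved little around these levels. Between the highest and the lowest of the 18 condition means, miR-100-5p differed 1.52-fold, miR-99b-5p 1.53-fold, miR-125b-5p 1.56-fold and miR-125a-5p 1.99-fold. When the condition means were ordered, neighbouring conditions overlapped in 17 of 17 pairs for miR-100-5p, 16 for miR-99b-5p, 15 for miR-125a-5p and 14 for miR-125b-5p. Neighbours in such an order have the closest means, so their overlap does not measure how little a miRNA moved. The widest range was that of miR-125a-3p, whose means ran 3.19-fold from 224 CPM at PMD-Sen D1 to 70.3 at PMD-Sen D16, with 17 of 17 neighbouring pairs overlapping.

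Which members differed from proliferating cells was asked in 17 comparisons with Ctrl, giving 153 pairs of member and condition. All 17 share the same 2 Ctrl libraries. The study's thresholds (unadjusted p under 0.05, more than a doubling or halving) were passed by 3 pairs (1.96%), all of them lower and all of them miR-125a-3p. Among all tested miRNAs, 5.88% of pairs passed in the lower direction. After Benjamini-Hochberg adjustment of the edgeR quasi-likelihood p-values, 10 pairs (6.54%) were under 0.05, against 7.16% over all miRNAs tested. A share of this size is close to the background and is not particular to the members. Of these pairs, 5 were higher and all belonged to miR-125 guides, and 5 were lower and all belonged to 3p arms of miR-125. The counts rested on the controls: without Ctrl replicate 1, 0 pairs passed the study's thresholds and 1 the adjusted p, and without Ctrl replicate 2 the counts were 7 and 5. Without DDR-Sen D8 replicate 1, 6 pairs passed the adjusted p.

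miR-125b-5p, the more abundant miR-125 guide, was higher than Ctrl at D3, D4 and D6 of the DDR-Sen series. It was the only member called on these days, when 4.44%, 6.67% and 10.6% of all tested miRNAs were called. It was at 53046 and 52986 CPM in Ctrl, at 68753 and 73024 at DDR-Sen D1, at 76261 and 71294 at D2, at 77349 and 81926 at D3, at 71853 and 73022 at D4 and at 72074 and 74913 at D6. The DDR-Sen libraries of these days lay above both Ctrl libraries. At D1 and D2 the levels were close to those at D4 and D6, with log2 fold changes of 0.42 and 0.48 that did not pass after adjustment (adjusted p 0.161 and 0.0975). The log2 fold change was 0.59 ± 0.13 (SE, n = 2 against 2) at D3 with an edgeR adjusted p of 0.00531, 0.45 at D4 (0.0391) and 0.47 at D6 (0.0203). By D16 it was at 55570 and 60793 CPM, a log2 fold change of 0.13 (0.506). In PMD-Sen its log2 fold changes lay between -0.06 and 0.23 and the smallest adjusted p was 0.252.

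These differences depended on the scaling. With total counts in place of TMM the values for D3, D4 and D6 were 0.39, 0.18 and 0.30, with adjusted p of 0.137, 0.488 and 0.183. That scaling moved the median of all tested miRNAs by -0.20, -0.26 and -0.17 in the same comparisons. The calls at D4 and D6 were also lost with DESeq2 size factors (0.33 and 0.38, adjusted p 0.125 and 0.0589), and those of all 3 days with no filter on low counts (0.54, 0.35 and 0.43, adjusted p 0.209 to 0.81). Relative to the median, miR-125b-5p was 0.50, 0.38 and 0.38 higher with TMM and 0.51, 0.37 and 0.37 higher with total counts. Without either Ctrl library or without DDR-Sen D3 replicate 2, the D3 value was 0.54 to 0.59 with adjusted p of 0.0721 to 0.0885, and the D4 and D6 calls were lost without any 1 of their 4 libraries (0.41 to 0.50, adjusted p 0.0947 to 0.312).

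In replicative senescence both miR-125 guides were higher. They were the 2 members called there, where 22.5% of all tested miRNAs were called, so the count is not particular to the members. miR-125a-5p, from the chromosome 19 cluster, was at 22851 and 23783 CPM in Ctrl and at 47222 and 37133 in RS. Both RS libraries were above every other library. The difference was 0.85 ± 0.19 on the log2 scale (95% interval 0.47 to 1.24), a 1.81-fold level, with an adjusted p of 0.000924 by edgeR. It passed the threshold without each of the 4 libraries in turn (0.67 to 0.88, highest adjusted p 0.0234). miR-125b-5p was at 67795 and 71686 CPM, a log2 fold change of 0.40 ± 0.13 with an adjusted p of 0.0316. That call was lost without any 1 of the 4 libraries (0.30 to 0.40, adjusted p 0.112 to 0.277) with total counts (0.30, adjusted p 0.141), with DESeq2 size factors (0.35, 0.0518), with no filter (0.44, 0.195) and in a fit of the 4 libraries alone (0.35, 0.353). The median of all tested miRNAs was 0.12 in this comparison. miR-99b-5p, which shares the cluster of miR-125a-5p, was at 22014 and 16652 CPM in RS against 14232 and 15031 in Ctrl, a log2 difference of 0.40 ± 0.21 that did not pass (adjusted p 0.172). miR-100-5p was at 71153 and 87058 CPM, on either side of Ctrl (-0.02, 95% interval -0.36 to 0.33). For miR-99a-5p the RS libraries lay far apart, at 153 and 422 CPM.

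Of the 3 passenger arms of miR-125, miR-125a-3p and miR-125b-1-3p were lower than Ctrl at D16 of both series. The third, miR-125b-2-3p, had log2 fold changes of 0.89 and 0.63 there, which did not pass (adjusted p 0.371 and 0.568). The 2 lower arms were the only members called at D16, where 16.7% (PMD-Sen) and 23.1% (DDR-Sen) of all tested miRNAs were called. At DDR-Sen D8, where miR-125a-3p was the only member called, the share was 11.4%. The D16 counts are therefore not particular to the members. miR-125a-3p, the passenger of MIR125A, was at 198 and 140 CPM in Ctrl, at 68 and 72.6 at PMD-Sen D16, and at 88.1 and 67.1 at DDR-Sen D16. It was thus below both Ctrl libraries. The log2 fold changes were -1.25 ± 0.33 (edgeR adjusted p 0.0112) and -1.12 ± 0.34 (0.0173), and that at DDR-Sen D8 was -1.11 ± 0.34 (0.0283). In RS it was at 105 and 93.4 CPM, which did not pass (-0.76 ± 0.33, adjusted p 0.106), while miR-125a-5p of the same hairpin was higher there.

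miR-125b-1-3p, the passenger of MIR125B1, was at 2368 and 2022 CPM in Ctrl, at 1233 and 1263 at PMD-Sen D16, and at 1097 and 1426 at DDR-Sen D16. All 4 D16 libraries lay below Ctrl. The log2 fold changes were -0.81 ± 0.25 (edgeR adjusted p 0.0273) and -0.80 ± 0.25 (0.0217). At the same time points the log2 fold changes of miR-125b-5p were 0.22 and 0.13, with adjusted p of 0.252 and 0.506. Each of the 5 calls on 3p arms was lost with no filter on low counts (-1.17 to -0.73, adjusted p 0.068 to 0.233). Each was also lost without Ctrl replicate 1, at log2 fold changes of -1.0 to -0.68 and adjusted p of 0.11 to 0.208. At least 1 treated library also decided each call, with adjusted p of 0.08 to 0.264 without PMD-Sen D16 replicate 1, DDR-Sen D8 replicate 1 or 2, or DDR-Sen D16 replicate 2. The call on miR-125b-1-3p at PMD-Sen D16 was lost in addition without Ctrl replicate 2 or PMD-Sen D16 replicate 2 (adjusted p 0.0702 and 0.0979).

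**Figure D2:**
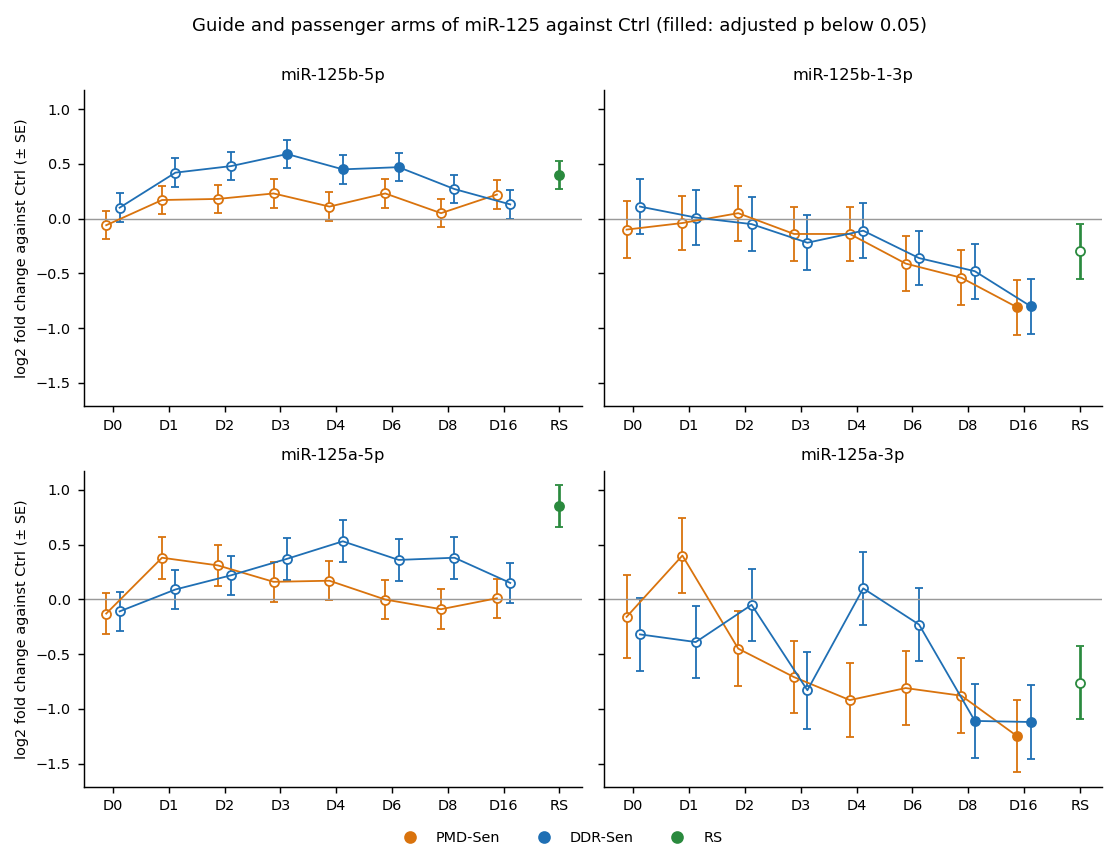
Log2 fold change against Ctrl, with SE as bars, of miR-125b-5p (top left), miR-125b-1-3p (top right), miR-125a-5p (bottom left) and miR-125a-3p (bottom right); filled circles have an edgeR adjusted p below 0.05 and days are not to scale. At D16 these 2 passengers lay at -1.25 to -0.80 and the guides at 0.01 to 0.22. The passenger miR-125b-2-3p is not drawn and lay at 0.89 and 0.63. All points share 2 Ctrl libraries.

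The remaining members did not pass in any comparison with Ctrl. miR-100-5p had log2 fold changes of -0.35 (PMD-Sen D2) to 0.25 (DDR-Sen D1), with a smallest adjusted p of 0.395. miR-99b-5p lay between -0.22 and 0.40, and miR-99b-3p, the passenger of its hairpin, between -0.53 and 0.30. miR-99a-5p had log2 fold changes of 0.07 to 0.41 over the 8 days of PMD-Sen, with a smallest adjusted p of 0.491. For miR-125b-2-3p the value at PMD-Sen D6 was 0.99, but its SE there was 0.72, and the 2 Ctrl libraries held 3 and 6 counts. Differences of this size were not detectable for miR-125b-2-3p at this depth.

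Change along a series was tested without Ctrl, as the late days D6, D8 and D16 against the early days D0, D1 and D2, 6 libraries each. In PMD-Sen 2 of 9 members (22.2%) passed the adjusted p of edgeR, against 33.6% of all tested miRNAs, and in DDR-Sen 3 of 9 (33.3%), against 27.5%. The members called were all lower late, and the passengers miR-125b-1-3p and miR-125a-3p were called in both series.

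In PMD-Sen miR-125b-1-3p was at 1765 to 2539 CPM early (median 2130) and at 1233 to 1913 late (median 1323). Of the late libraries, 4 of 6 lay below every early one. In DDR-Sen it was at 1840 to 2437 early (median 2363) and at 1097 to 1768 late (median 1570), and the groups did not overlap. It fell by 0.56 ± 0.15 on the log2 scale in PMD-Sen (adjusted p 0.0038) and by 0.57 ± 0.15 in DDR-Sen (0.00369). These are falls to 1.47-fold and 1.49-fold lower levels. The difference between the 2 falls was 0.02, with a 95% interval of -0.41 to 0.44. The calls held without each of the 12 libraries of a series in turn (-0.64 to -0.43 and -0.66 to -0.51). With no filter on low counts the PMD-Sen call was lost (-0.41, adjusted p 0.0749).

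miR-125a-3p was at 96.7 to 277 CPM early (median 159) and at 68 to 96.8 late (median 89.4) in PMD-Sen. In 5 of 6 late libraries it was below every early one. In DDR-Sen it was at 103 to 168 early (median 153) and at 67.1 to 153 late (median 87.5), where the D6 libraries still had 130 and 153. It fell by 0.91 ± 0.20 in PMD-Sen (adjusted p 0.000793) and by 0.57 ± 0.19 in DDR-Sen (0.0247). The PMD-Sen call held without each library (-1.02 to -0.77), whereas that in DDR-Sen was lost without DDR-Sen D0 replicate 2, D1 replicate 2, D2 replicate 1, D6 replicate 1, D8 replicate 1 or D16 replicate 2 (-0.56 to -0.44, adjusted p 0.0523 to 0.112). It was also lost with no filter (-0.61, adjusted p 0.153), with D1, D2 and D3 as early days (-0.40, 0.159) and with D16 against D0 and D1 (-0.76, 0.0726). PMD-Sen totals were lower early (81670 to 378490 counts) than late (325894 to 1933442), and the part of depth in its changes was not tested. DDR-Sen totals were 311044 to 1010186 early and 323230 to 558758 late.

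The other members showed smaller changes along the series. miR-100-5p fell by 0.30 ± 0.10 in DDR-Sen (adjusted p 0.022), from 77517 to 98446 CPM early (median 92602) to 70138 to 78154 late (median 73554). In PMD-Sen it was at 57158 to 71112 early and 61902 to 87169 late, a difference of 0.19 ± 0.10 that did not pass (0.134). The DDR-Sen call was lost without DDR-Sen D0 replicate 1, D2 replicate 1, D6 replicate 2, D8 replicate 1 or 2, or D16 replicate 1 (-0.28 to -0.26, adjusted p 0.0556 to 0.076), with D1, D2 and D3 as early days (-0.27, 0.0546) and with D16 against D0 and D1 (-0.26, 0.234). For miR-125b-5p the late and early days differed by 0.07 (95% interval -0.09 to 0.23) in PMD-Sen and by -0.04 (-0.20 to 0.11) in DDR-Sen. For miR-99b-3p, the passenger of MIR99B, the intervals were -0.41 to 0.28 and -0.24 to 0.41.

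**Figure D3:**
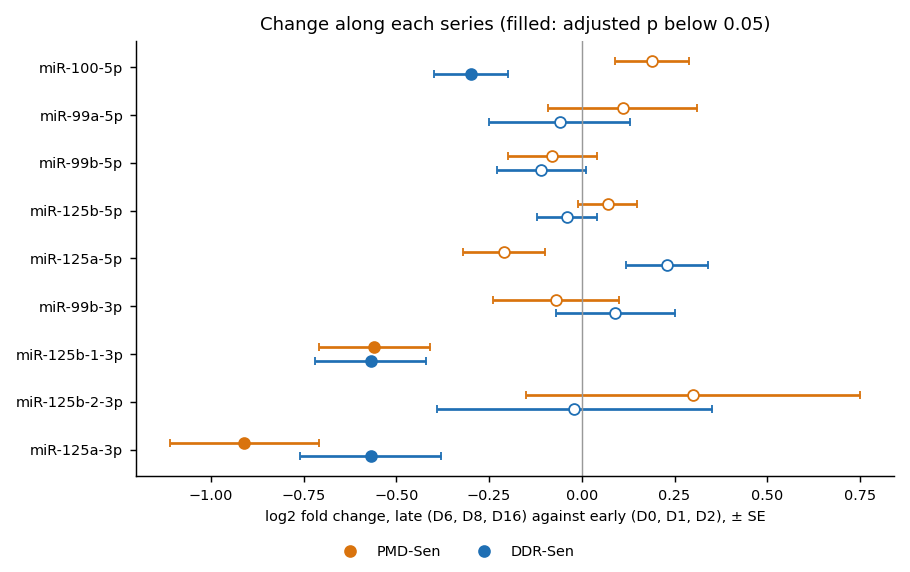
Log2 fold change of late (D6, D8, D16) against early (D0, D1, D2) libraries for each member and series, with SE as bars; filled circles have an edgeR adjusted p below 0.05. miR-125b-1-3p (-0.56 and -0.57) and miR-125a-3p (-0.91 and -0.57) are filled in both series, and miR-100-5p in DDR-Sen (-0.30).

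Whether the change with time differed between PMD-Sen and DDR-Sen was tested directly. The difference passed for 2 of 9 members (22.2%), against 15.6% of all tested miRNAs. miR-100-5p changed by 0.48 ± 0.14 more in PMD-Sen than in DDR-Sen (95% interval 0.20 to 0.76, edgeR adjusted p 0.0159). miR-125a-5p changed by 0.44 ± 0.15 less (-0.44, -0.75 to -0.13, adjusted p 0.0431). Its medians went from 26566 CPM early to 23276 late in PMD-Sen, and from 24375 to 29738 in DDR-Sen, although neither change passed alone (-0.21, adjusted p 0.128, and 0.23, adjusted p 0.103). The call on miR-100-5p was lost without PMD-Sen D8 replicate 1 (0.40, adjusted p 0.0518), and was kept without each of the other 23 libraries. The choice of days also ended it, at 0.40 (adjusted p 0.0783) with D1, D2 and D3 as early days and at 0.58 (0.108) with D16 against D0 and D1. The call on miR-125a-5p was lost without any 1 of 17 of the 24 libraries (-0.46 to -0.30, adjusted p 0.0525 to 0.214). These were all DDR-Sen libraries of the early and late days but D1 replicate 2 and D16 replicate 2, and PMD-Sen D0 replicate 1, D1 replicate 2, D2 replicate 2, D6 replicate 1, D8 replicate 1 and both of D16. It was lost as well with DESeq2 size factors (-0.41, adjusted p 0.0506), with no filter (-0.24, 0.866) and with either other choice of days (-0.38 and -0.27, 0.12 and 0.526).

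The level of the series was compared at matched days, as PMD-Sen against DDR-Sen over D1 to D16. Of the members, 1 of 9 (11.1%) passed, against 20% of all tested miRNAs. Of the 9 let-7 guides, 7 passed, all lower in PMD-Sen, with a median of -0.39 against 0.02 over all tested miRNAs. A lower level in PMD-Sen is therefore not particular to the members. miR-125b-5p was at 51944 to 63912 CPM (median 60558) in 14 PMD-Sen libraries and at 55570 to 81926 (median 71964) in 14 DDR-Sen libraries. The mean was higher in DDR-Sen on 6 of 7 days, the exception being D16. The difference was -0.23 ± 0.05 (edgeR adjusted p 0.00108) and kept its call without each of the 28 libraries (-0.24 to -0.20). With total counts it was -0.06 (adjusted p 0.43), while the median of all tested miRNAs moved from 0.02 to 0.18. Relative to that median it was -0.25 with TMM and -0.24 with total counts. miR-100-5p and miR-125a-5p were both at -0.16, without passing (0.076 and 0.0905), and the sign of both, and of miR-125a-3p and miR-125b-1-3p, turned with total counts, that of miR-125b-1-3p also with DESeq2 size factors. At D16 alone the log2 differences of the members lay between -0.14 and 0.27, with adjusted p of 0.784 to 0.991.

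A ratio of 2 miRNAs of the same library does not depend on library scaling. In Ctrl, miR-125b-5p had 22.4 and 26.2 times the counts of miR-125b-1-3p. Reads of miR-125b-5p can come from MIR125B1 or MIR125B2, so this is not the arm ratio of a single hairpin. In PMD-Sen the log2 ratio was 4.73 ± 0.19 (SD, n = 6) early and 5.36 ± 0.27 late, the latter at 5.02 to 5.63 and the former at 4.54 to 5.01, so that the groups did not overlap. In DDR-Sen it was 4.91 ± 0.31 early and 5.43 ± 0.12 late. The rise was 0.63 in PMD-Sen (exact two-sided permutation test, p = 0.00216, the smallest that 6 against 6 libraries can give, adjusted p 0.0303 over the 28 ratio tests) and 0.53 in DDR-Sen (exact permutation p = 0.00433, adjusted p 0.0303). At D16 the guide had 49.4 and 49.2 times the counts of the passenger in PMD-Sen, and 42.6 and 50.6 times in DDR-Sen.

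For the miR-125a hairpin the ratio of guide to passenger was 114 and 168 in Ctrl. In DDR-Sen its log2 value rose from 7.44 ± 0.29 (SD, n = 6) early to 8.23 ± 0.43 late, by 0.79 (exact permutation p = 0.00649, adjusted p 0.0364). In PMD-Sen it went from 7.38 ± 0.50 to 8.06 ± 0.28, by 0.68, and did not pass after adjustment (exact permutation p = 0.0195, adjusted p 0.0545). Leaving out DDR-Sen D0 replicate 1, or either library of D1 or D2, took the DDR-Sen value to 0.76 to 0.85 with an adjusted p of 0.0505 to 0.0545. In RS the ratio was 445 and 394, above that in Ctrl. For the miR-99b hairpin the RS ratio was 40.7 and 37 (24.1 and 28.3 in Ctrl), also above Ctrl. The RS ratio of miR-125b-5p, which can come from either locus, to miR-125b-1-3p was 30.4 and 55.4. Between late and early days, in PMD-Sen and DDR-Sen, miR-99b-5p over miR-99b-3p differed by -0.02 and -0.19 (exact permutation p = 0.861 and 0.0606), and miR-125b-5p over miR-125b-2-3p by -0.12 and 0.02 (p = 0.654 and 0.974 by the same exact test).

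Among guides of 1 cluster or 1 seed, some ratios changed between early and late days in DDR-Sen and others did not pass. Not passing were miR-125a-5p and miR-99b-5p over let-7e-5p (0.12 and -0.22, exact permutation adjusted p 0.242 and 0.257). The same held for miR-99a-5p over let-7c-5p (-0.46, 0.158), miR-100-5p over miR-99a-5p (-0.23, 0.236) and miR-99b-5p over miR-100-5p (0.18, 0.101). miR-99b-5p over miR-125a-5p, whose genes are neighbours on chromosome 19, went from a log2 ratio of -0.65 ± 0.16 (SD, n = 6) early to -0.99 ± 0.12 late, a fall of -0.34 (exact permutation p = 0.00433, adjusted p 0.0303). It was lowest at DDR-Sen D3 (-1.25 and -1.19) and D4 (-1.25 and -1.12), and was -0.68 and -0.66 in Ctrl and -1.10 and -1.16 in RS. miR-125a-5p over miR-125b-5p rose in DDR-Sen from -1.45 ± 0.10 to -1.18 ± 0.11, by 0.27, with every late library above every early one (exact permutation p = 0.00216, adjusted p 0.0303). In PMD-Sen the same difference was -0.27 and did not pass after adjustment (exact permutation p = 0.0108, adjusted p 0.0505). In RS it was -0.60 and -0.87, against -1.21 and -1.16 in Ctrl.

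Of the 28 ratio tests, 5 passed the adjusted p and 12 had an unadjusted exact permutation p below 0.05. With D1, D2 and D3 as the early days the 5 differences were 0.52, 0.26, 0.48, -0.10 and 0.28, in the order given here, with adjusted p of 0.0606 to 0.54. The days used as early libraries therefore decide these calls. In DDR-Sen the ratio of miR-125b-5p to miR-125b-1-3p was 42.6 and 41.7 at D3, 35.8 and 35.4 at D4 and 43.4 and 42.4 at D6. That of the miR-125a arms was 303 and 323 at D3, then 206 and 168 at D4 and 226 and 197 at D6. It was 429 and 350 at D8 and 312 and 349 at D16, so D4 and D6 lay below the days on either side.

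**Figure D4:**
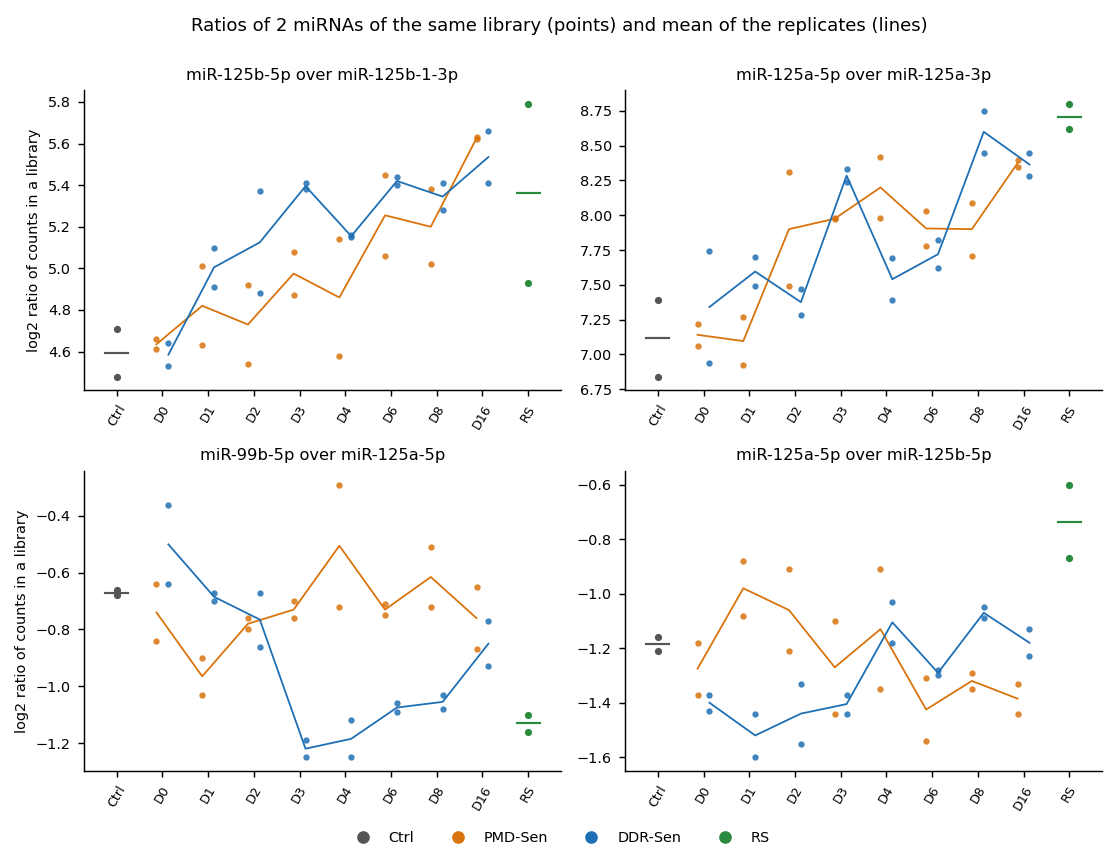
Log2 ratio of the counts of 2 miRNAs within each library (vertical axes do not start at 0; days not to scale); points are libraries and lines join or mark replicate means. Guide over passenger of miR-125b lay at 4.48 and 4.71 in Ctrl and at 5.41 to 5.66 at D16 of both series, and miR-99b-5p over miR-125a-5p was lowest at DDR-Sen D3 and D4.

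The let-7 members of the clusters were examined beside them. Of 8 partners (let-7 arms and the 3p arms of MIR99A and MIR100), 5 passed the filter, and miR-99a-3p, let-7c-3p and miR-100-3p were left with 2, 9 and 82 counts over all 36 libraries. Late against early in PMD-Sen, 2 of the 5 were lower at adjusted p (median of the 5, -0.20, against -0.03 over all tested miRNAs). let-7e-5p, between MIR99B and MIR125A, fell by 0.43 ± 0.13 there (edgeR adjusted p 0.00824), and let-7c-5p, beside MIR99A, by 0.64 ± 0.17 (0.00413). In DDR-Sen the same contrasts were 0.11 (0.551) and 0.37 (0.101). The change with time differed between the series for both, by -0.54 (0.0371) and -1.01 (0.00475). Of the 9 let-7 guides, 4 were called late in PMD-Sen and 1 in DDR-Sen, all lower, with medians of -0.19 and 0.11 (all tested miRNAs, -0.03 and 0.03). Over all tested miRNAs 33.6% and 27.5% were called in these contrasts and 15.6% for the difference between the series, and with so few miRNAs the counts of partners and let-7 guides are not read as particular to them. let-7 guides are also near-identical, and let-7e-5p and let-7c-5p had counts that were not whole in 21 libraries each.

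miRNAs whose pattern was most like that of a member were sought over the 18 condition means of log2 CPM, which all share 1 normalization. miR-125b-1-3p was most like miR-23a-5p (Pearson r = 0.86 across conditions) and miR-27a-5p (0.85), and miR-125a-3p was most like miR-29b-1-5p (0.80) and miR-25-5p (0.79). All 4 are generally described as the passenger arms of their hairpins. For the guides the closest were miR-34c-5p for miR-100-5p (0.75), miR-486-5p for miR-125b-5p (0.76), miR-6511b-3p for miR-125a-5p (0.71), miR-423-3p for miR-99b-5p (0.73) and miR-665 for miR-99a-5p (0.65). miR-99b-3p was closest to miR-7706 (0.73) and miR-125b-2-3p to miR-127-5p (0.66). Each is the highest value over the tested miRNAs outside the members, except miR-27a-5p and miR-25-5p, which rank 2. All are given as a description.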

How the data were processed

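The authors sequenced 36 small RNA libraries (NEXTFLEX kit, 17 PCR cycles) and, per the paper's methods, aligned reads to GRCh38 and counted miRNAs with exceRpt 4.6.2. The values as deposited are expected counts of each mature miRNA without normalization, and a read fitting several miRNAs was split between them. The authors' expected counts were rounded, and 0 columns lacked a sample. Libraries were grouped by their labels. edgeR 4.0.16 (R 4.3.3) was fitted to all 36 libraries and 18 conditions with TMM scaling, filterByExpr and quasi-likelihood p-values, which were Benjamini-Hochberg adjusted over the 360 miRNAs tested. The common biological coefficient of variation was 20.9% with 18 residual degrees of freedom. Standard errors come from this fit. Ratios used log2 counts after adding 0.5 and an exact permutation test (SciPy 1.17.1).

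Named miRNAs were the 9 members, 8 cluster partners, 9 let-7 guides as a list, and the 2 tested miRNAs most correlated with each member. Members, lists and tests were chosen with earlier results of these data known. The procedure was tested on simulated data. Alternatives were DESeq2 1.42.0 (size factors and Wald test), total counts, other filters, other days, the 4 libraries of a comparison alone, a replicate block and leaving out each library. The fits without a library kept the same 360 miRNAs, a choice made after seeing the data, because filterByExpr loosens when a condition has 1 library. Marker miRNAs of other cell types were summed per library. The edgeR p-values rest on the spread between the 2 labelled biological replicates of a condition, pooled over all 18 conditions. The exact permutation test treated libraries of different days within the late or early group as replicates. Its p-values therefore mix the spread between days with that between replicates.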

Additional observations from a re-analysis of the deposited data

Results flagged for a closer look

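For miR-100-5p the late-minus-early change differed between the series, by 0.48 on the log2 scale (PMD-Sen minus DDR-Sen, edgeR adjusted p 0.0159), with 0.19 in PMD-Sen and -0.30 in DDR-Sen. In 4 of 6 late PMD-Sen libraries the level was above every early one, and in 4 of 6 late DDR-Sen libraries it was below every early one. For miR-125a-5p the change differed in the opposite direction, by -0.44 (edgeR adjusted p 0.0431), with -0.21 in PMD-Sen and 0.23 in DDR-Sen, and 4 of 6 late DDR-Sen libraries were above every early one. Both calls were lost with D1, D2 and D3 as early days (0.40 and -0.38, adjusted p 0.0783 and 0.12) and with D16 against D0 and D1 (0.58 and -0.27, 0.108 and 0.526).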

How the results depend on the processing

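The 10 pairs at adjusted p against Ctrl became 1 with no filter and 6 with total counts, and 1 to 11 without 1 library, while the 3 pairs past both thresholds became 0 to 7 without 1 library. Late against early in DDR-Sen, 1 member passed with D1, D2 and D3 as early days or with D16 against D0 and D1, and 1 to 3 without 1 library. For the difference between the series in change with time, 1 passed with DESeq2 size factors or no filter, 0 by edgeR with D1, D2 and D3 as early days (2 at an unadjusted p below 0.05, 1 by DESeq2 after adjustment) or with D16 against D0 and D1 (1 unadjusted, 0 by DESeq2), and 0 to 2 without 1 library. For PMD-Sen against DDR-Sen over D1 to D16, 3 members passed with total counts, 0 by edgeR or DESeq2 at D16 alone (0 unadjusted) and 1 to 2 without 1 library. The 3 with total counts were miR-99a-5p, miR-99b-5p and miR-99b-3p, all higher in PMD-Sen (0.38, 0.26 and 0.34, edgeR adjusted p 0.0198, 0.0112 and 0.0127). The median of all tested miRNAs was then 0.18, and miR-125b-5p did not pass (-0.06, 0.43). At D16 alone, miR-125b-5p changed sign, to 0.08 (adjusted p 0.9). Ratios passing fell from 5 to 0 with D1, D2 and D3 as early days (7 by the unadjusted exact permutation test), and were 4 to 12 without 1 library. With no filter, 1393 miRNAs were tested in place of 360. For the other changes the cause was not tested. Shares over all tested miRNAs are not given for these alternatives, so the counts are not read as particular to the members. With the replicate number as a block (replicate block) the counts were 3 and 10 against Ctrl, 2 and 3 late against early, 2 for the difference in time, 1 between the series and 6 ratios. Over 153 pairs of conditions, the deviations of equal numbers correlated at -0.46 to 0.37 (median 0.04, 53 over 0.1). The labels do not say whether equal numbers share a culture or day, and these correlations cannot decide it. Replicate 1 was higher in 14 of 18 conditions for miR-100-5p, in 5 each for miR-125a-5p and miR-125b-2-3p, and in 6 to 10 for the other members. Late PMD-Sen counts, 2 to 3, stayed within 1.5-fold of the 2 reported under all alternatives, although miR-125b-1-3p lost its call with no filter (-0.41, adjusted p 0.0749). Counts of 1 to 47 limit miR-125b-2-3p, and miR-99a-5p had 22 to 424.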
